A study of Mus musculus with 35 samples.

Results

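The transcripts of 45 mitosis and spindle genes were followed in NMuMG cells, a mouse mammary epithelial line widely used to study the change from epithelial to mesenchymal state under TGF-β. The genes were chosen by name, and all 45 were among the 20261 genes of the normalized read count table of the inhibitor experiment. They fall into 8 role groups. These are the Cdk1 engine with its transcription factor, mitotic kinases, the chromosomal passenger complex, and kinetochore and checkpoint genes. The others are spindle kinesins and assembly factors, central spindle and cytokinesis genes, anaphase and ubiquitin genes, and mitotic chromosome genes. The question addressed was at which time these transcripts fell and whether they had come back by 7 days. Cells were labelled JNKi, an inhibitor whose compound and dose the labels do not name, or DMSO, its solvent control. They were collected at 24, 48, 72 and 96 h and at 7 days with 2 replicates in each of the 10 groups. All 20 libraries are labelled as wild type, strain E9, mammary gland. The treatment protocol attached to each of them gives TGF-β at 2 ng/ml, renewed with a medium change every 2 days, so the controls carry it as well. No library of the inhibitor experiment was taken at 0 h, and 24 h is therefore the first time compared. Nothing in the labels tells whether the replicates of a group were grown apart. The p-values below therefore rest on the spread between libraries alone, and that spread may be technical.

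A cell enters mitosis when Cdk1 bound to A- and B-type cyclins is switched on by Cdc25 phosphatases and Polo and Aurora kinases. Kinetochores then tie chromosomes to spindle microtubules, and a checkpoint holds back the anaphase-promoting complex until all are tied. Cdc20 with Ube2c then starts the destruction of cyclins and securin. Most of these genes are transcribed late in the cell cycle through the FOXM1, B-MYB and MuvB complexes, and are shut in resting cells by the DREAM complex. Their transcripts are therefore commonly read as a sign of cycling cells. TGF-β is known to hold many epithelial cells, NMuMG among them, in G1. In bulk RNA a smaller share of dividing cells and less RNA per dividing cell cannot be told apart, and cell division itself was not measured in the data used here.

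Recovered read totals ranged from 9.5 to 48.6 M per library, the lowest in JNKi at 7 days replicate 1. The lowest member value rested on 111 reads (Cdc25c with DMSO at 96 h replicate 2), and 0 members were under 100 reads in any library. The summed level of 7 epithelial markers was lower at 96 h and 7 days than at 24 h in both arms. With JNKi it spanned 313600 to 353500 normalized reads at 24 h, 124500 to 130800 at 96 h and 93720 to 100800 at 7 days. With DMSO it spanned 310400 to 328700 at 24 h, 142500 to 151800 at 96 h and 127400 to 161500 at 7 days. The DMSO pair of 96 h thus lay inside the DMSO span of 7 days. The sum follows its most abundant genes. Of the 6 epithelial markers tested at 96 h against 24 h, 4 were lower and 1 higher with JNKi, and 2 lower and 0 higher with DMSO. Cldn4 was the most positive there, at 0.6 on the log2 scale with JNKi and 0.32 with DMSO. At 7 days against 24 h 5 were lower and 1 higher in each arm. Epcam, an epithelial adhesion gene, went the other way: it was at 0 in 15 of 20 libraries and stood at 11.1 and 12.6 normalized reads with JNKi and 11.8 and 8.1 with DMSO at 7 days. Cldn3 was at 0 in 9 libraries. Endothelial and leukocyte markers were low in every library, with their highest sums at 7 days. The sum over 5 endothelial markers spanned 65.5 to 73.0 normalized reads with JNKi at 24 h, 156.2 to 195.2 at 96 h and 410.3 to 411.6 at 7 days. With DMSO it spanned 59.1 to 87.1 at 24 h, 133.3 to 210.2 at 96 h and 301.5 to 350.2 at 7 days. In each arm the 3 endothelial genes above the low-value filter were all higher at 7 days than at 24 h. Of these, 2 were higher than at 96 h. That filter keeps a gene that averages 10 or more in any 1 group, so a marker can enter through its 7 day level alone. Pecam1 and Kdr were at 0 in both DMSO libraries of 24 h. Counts of markers higher at 7 days, for endothelial and leukocyte genes and for Epcam, are therefore partly set by the filter. The sum over 7 leukocyte markers spanned 113.5 to 131 with JNKi at 24 h and 335.5 to 367.5 at 7 days, and 100.9 to 144.7 with DMSO at 24 h and 226.5 to 291.2 at 7 days. Of the 4 leukocyte genes above that filter, 3 were higher at 7 days than at 24 h in each arm, and against 96 h 2 were with JNKi and 0 with DMSO. The sum over 3 adipocyte markers reached at most 36.7 normalized reads, at 24 h. Of the defining markers, Emr1, Emcn and Plin1 were at 0 in 17, 15 and 18 libraries. The 7 day libraries also stood apart in 527 near-silent olfactory and vomeronasal receptor genes, which summed to 16.37 and 18.54 RPM (reads per 1 M recovered reads) with JNKi and 7.74 and 9.49 with DMSO at 7 days, against 1.54 to 4.84 at the earlier times. The part of these marker and receptor shifts in the 7 day results was not tested.

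The members fell together, most between 24 and 48 h and between 72 and 96 h, and they came back in part by 7 days. At 96 h the median member stood at 27.1% of its 24 h level with JNKi and at 23% with DMSO. At 7 days it stood at 66.9% with JNKi and at 50.8% with DMSO. Each arm is set here against its own 24 h level, and these levels differ. The log2 difference of JNKi from DMSO at 24 h was below 0 in 45 members, at a median of -0.21, though no member passed the test given below. No member's mean at 7 days reached its 24 h mean in either arm. The share of all recovered reads taken by the 45 genes was read in each library, and pairs here and below are the values of replicates 1 and 2. With JNKi the share had a 24 h pair of 0.477% and 0.559%, a 48 h pair of 0.31% and 0.295%, a 72 h pair of 0.257% and 0.29%, a 96 h pair of 0.16% and 0.161%, and a 7 day pair of 0.382% and 0.408%. With DMSO the share had a 24 h pair of 0.549% and 0.631%, a 48 h pair of 0.335% and 0.291%, a 72 h pair of 0.271% and 0.322%, a 96 h pair of 0.136% and 0.161%, and a 7 day pair of 0.296% and 0.337%. In both arms the 96 h pair was the lowest, and the 7 day pair lay between the 96 h and the 24 h pairs without touching either.

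**Figure D1:**
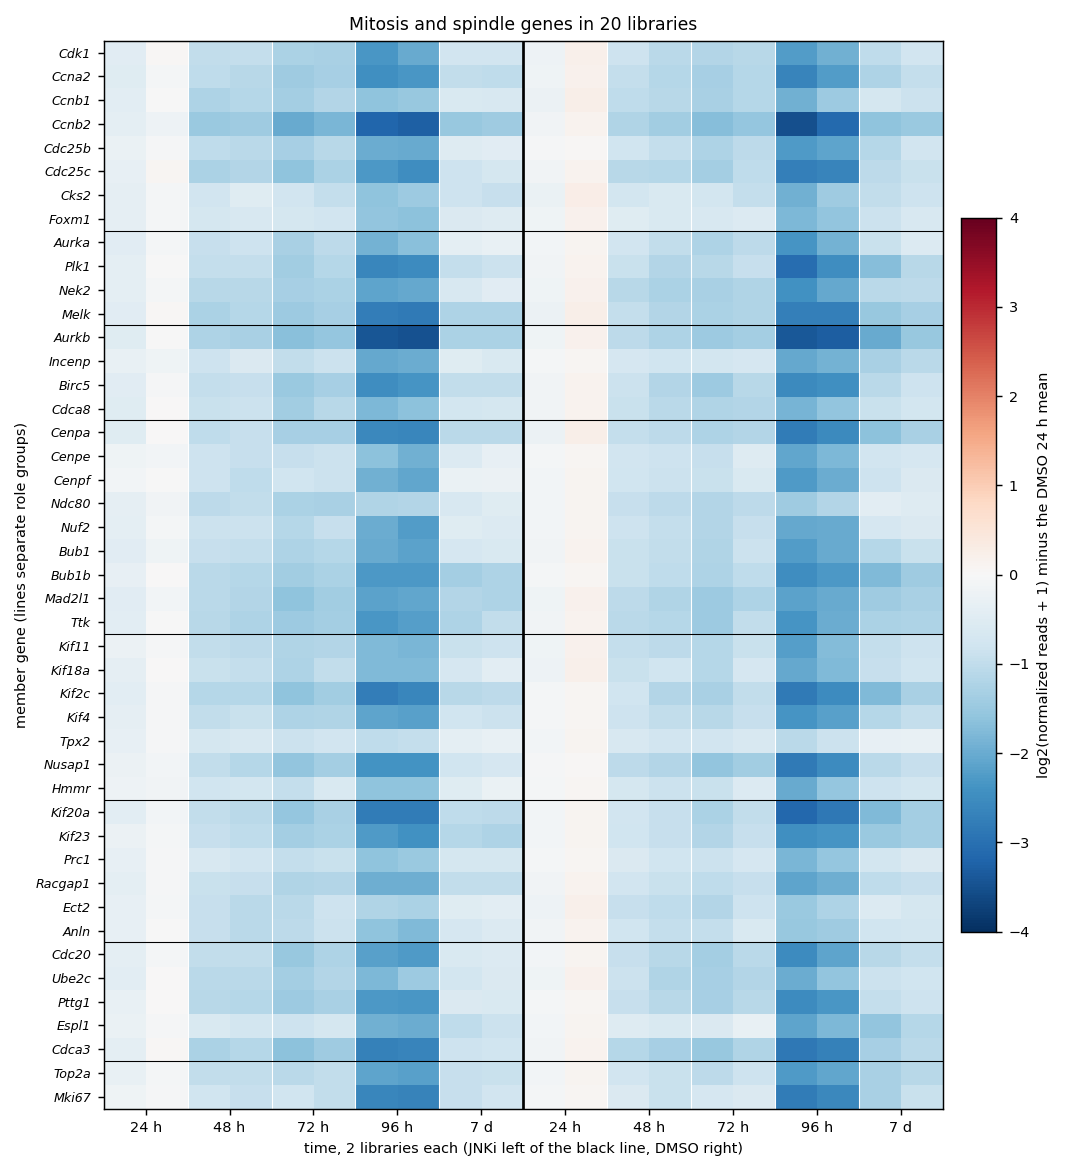
Heat map of the 45 members (rows, grouped by role) in the 20 libraries (columns, JNKi left and DMSO right, each by time with its 2 replicates). Colour is log2(normalized reads + 1) minus the gene's DMSO 24 h mean, blue for lower; the darkest columns are at 96 h in both arms, where library medians lie between -2.25 and -2.0, and the 7 day columns are paler, with medians between -1.09 and -0.72.

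Tests used limma on log2(normalized reads + 1) over 13896 genes, with a Benjamini-Hochberg adjusted p of 0.05 as the threshold. From 24 to 48 h, 44 of 45 members fell with JNKi, where 11.2% of all genes tested fell, and 45 of 45 fell with DMSO, where 13.7% of all genes did. Fitted on the compared groups alone, the JNKi step kept its median of -0.77 but called 0 members and 0 of all genes tested. The DMSO count was 31 to 45 under the alternatives that kept all libraries. With the compared groups alone Foxm1, Birc5, Prc1, Ube2c, Mki67 and Espl1 were among the members that lost their DMSO call. The median log2 change was -0.77 with JNKi and -0.96 with DMSO, beside 0.01 and 0.00 over all genes tested. Cks2, a small Cdk-binding protein, was the member that missed the threshold with JNKi, at -0.43 (adjusted p = 0.0902). Between 48 and 72 h no member passed limma's test in either arm, and 0.115% of all genes tested did with JNKi and 0.259% with DMSO. At an unadjusted p under 0.05 that step had 16 members lower with JNKi and 3 with DMSO, with medians of -0.23 and -0.15. Of the 13896 genes tested, 2168 with JNKi and 2007 with DMSO were under it in either direction. The change was below 0 in 42 members with JNKi and 37 with DMSO, so a smaller fall over this step is not excluded. The tools edgeR and DESeq2 on recovered reads also called 0 members in both arms.

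From 72 to 96 h, 40 members fell with JNKi, where 17.3% of all genes fell, and 43 fell with DMSO, where 20.8% did, with medians of -0.89 and -1.09. The members below the threshold were Ccnb1, Ndc80, Tpx2, Ect2 and Ube2c with JNKi and Ndc80 and Ect2 with DMSO. From 96 h to 7 days, 45 of 45 rose in both arms, at medians of 1.38 with JNKi and 1.16 with DMSO. Over the same interval 23.2% of all genes tested rose with JNKi and 21% with DMSO. Set against 24 h, 37 members were lower at 7 days with JNKi, at a median of -0.57, where 26.3% of all genes tested were lower. With DMSO 45 were lower, at a median of -0.97, where 28% of all genes were. Without JNKi at 24 h replicate 2 the JNKi count was 20. Successive steps of an arm share libraries, those of 96 h entering both the fall and the return, so these tests are not independent.

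**Figure D2:**
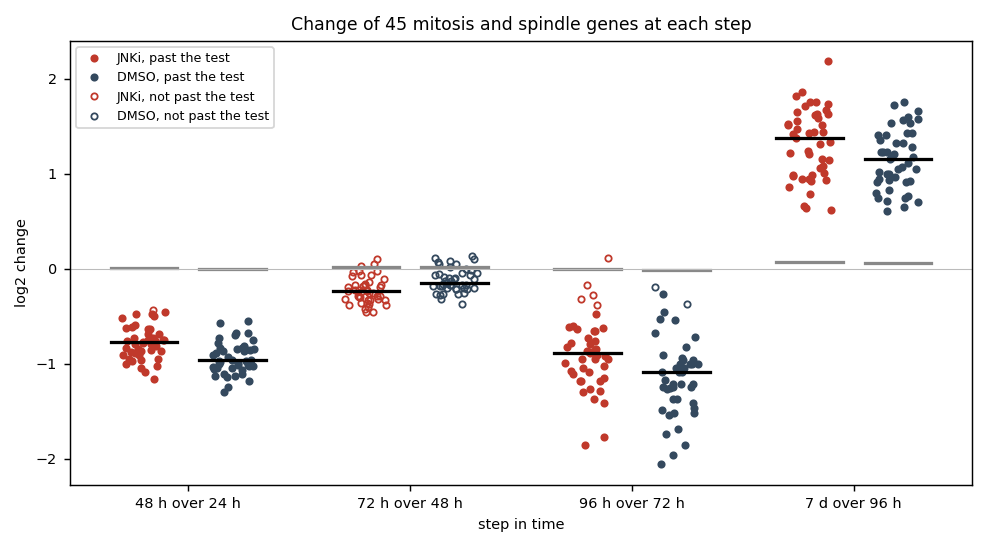
Log2 change of each of the 45 members (points) at the 4 successive steps, JNKi left of DMSO within a step; filled points passed limma's test, open points did not, black bars mark the members' median and grey bars the median of all 13896 genes tested. The points lie below 0 at 48 h over 24 h (medians -0.77 and -0.96) and at 96 h over 72 h (-0.89 and -1.09). They are open and mostly below 0 at 72 h over 48 h (-0.23 and -0.15), and above 0 at 7 days over 96 h (1.38 and 1.16).

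Promoter windows are shown because the members moved together. CCAAT boxes, read by the factor NF-Y, and the cell cycle genes homology region (CHR), read by the MuvB complexes, are elements known from promoters of late cell cycle genes. RefSeq windows of 300 bases (GRCm38.p6, 250 bases before to 50 after each start) were found for 38 members in 40 windows; Aurkb, Ccna2, Cdc25c, Foxm1, Incenp, Kif20a and Tpx2 had no entry. CCAAT was searched as CCAAT or its reverse ATTGG, and the CHR as TTTGAA or its reverse TTCAAA, or TTCGAA, which reads the same on both strands; the letters of the 2 motifs can overlap by chance. Ccnb2 is printed because it had the largest DMSO return at 7 days, Cdk1, Plk1 and Cdc20 as core mitotic genes, and Nusap1 as a member with neither motif in its window, whose DMSO return was 1.66 ± 0.12. Each is written 5′ to 3′ on the gene's strand, with the motif letters in capitals.
Ccnb2 (chr9:70421505-70421804, minus strand): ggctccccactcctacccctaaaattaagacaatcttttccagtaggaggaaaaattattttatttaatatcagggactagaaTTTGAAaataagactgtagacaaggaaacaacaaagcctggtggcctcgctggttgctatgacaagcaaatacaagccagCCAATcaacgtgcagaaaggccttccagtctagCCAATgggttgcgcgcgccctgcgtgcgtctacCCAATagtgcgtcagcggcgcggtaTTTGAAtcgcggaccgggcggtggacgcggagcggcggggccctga
Cdk1 (chr10:69352863-69353162, minus strand): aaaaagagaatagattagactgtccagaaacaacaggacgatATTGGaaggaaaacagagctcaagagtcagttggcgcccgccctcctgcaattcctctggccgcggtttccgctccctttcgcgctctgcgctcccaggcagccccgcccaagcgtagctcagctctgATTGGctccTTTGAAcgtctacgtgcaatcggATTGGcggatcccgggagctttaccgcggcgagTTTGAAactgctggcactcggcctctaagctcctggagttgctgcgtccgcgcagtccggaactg
Plk1 (chr7:122159185-122159484, plus strand): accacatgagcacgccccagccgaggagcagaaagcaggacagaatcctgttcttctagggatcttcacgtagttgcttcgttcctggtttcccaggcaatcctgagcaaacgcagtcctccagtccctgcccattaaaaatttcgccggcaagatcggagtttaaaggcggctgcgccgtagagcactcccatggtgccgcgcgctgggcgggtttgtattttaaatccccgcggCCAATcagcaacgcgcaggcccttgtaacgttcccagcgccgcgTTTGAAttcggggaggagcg
Cdc20 (chr4:118437294-118437593, minus strand): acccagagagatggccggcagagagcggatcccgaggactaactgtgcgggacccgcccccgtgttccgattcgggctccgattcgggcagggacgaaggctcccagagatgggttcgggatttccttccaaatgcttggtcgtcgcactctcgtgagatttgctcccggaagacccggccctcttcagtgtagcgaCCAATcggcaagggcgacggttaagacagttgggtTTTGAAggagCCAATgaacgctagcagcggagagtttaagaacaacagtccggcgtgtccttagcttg
Nusap1 (chr2:119618048-119618347, plus strand): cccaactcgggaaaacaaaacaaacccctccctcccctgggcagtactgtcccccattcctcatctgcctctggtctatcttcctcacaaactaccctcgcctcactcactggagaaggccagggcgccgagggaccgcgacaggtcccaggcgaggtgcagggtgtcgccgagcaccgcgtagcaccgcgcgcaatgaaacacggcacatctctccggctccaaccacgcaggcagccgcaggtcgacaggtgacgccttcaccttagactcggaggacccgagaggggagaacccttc

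The Ccnb2 window held 3 CCAAT boxes, the Cdk1 window 3, Cdc20 2, Plk1 1 and Nusap1 0. CCAAT was present in 30 of 40 member windows, 75%, against 37.4% of all 32851 windows in the table. The CHR letters were present in 29 member windows, 72.5%, against 19.2% of all windows. Both motifs stood together in 26 member windows, 65%, against 7.52% of all. Among the 24 genes with both motifs the log2 change from 96 h to 7 days with DMSO had a median of 1.09 and ranged from 0.61 to 1.76. The 7 genes with neither (Birc5, Kif18a, Mad2l1, Melk, Nuf2, Nusap1 and Pttg1) had a median of 1.43 and ranged from 0.71 to 1.66. The ranges overlap, and a match of these letters is a description, not a site of binding.

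The Cdk1 engine and its transcription factor comprised 8 members, of which 8 rose from 96 h to 7 days with JNKi, at a median of 1.40, and 8 with DMSO, at a median of 1.20. Ccnb2, cyclin B2, a partner of Cdk1, carried the largest fall of all members from 24 to 48 h in both arms. With JNKi, Ccnb2 had a 24 h pair of 1159 and 1345 normalized reads, a 48 h pair of 545 and 572, a 72 h pair of 379.5 and 434, a 96 h pair of 171 and 160.1, and a 7 day pair of 532 and 575. With DMSO, Ccnb2 had a 24 h pair of 1387 and 1701 normalized reads, a 48 h pair of 669 and 579.9, a 72 h pair of 472 and 526, a 96 h pair of 134 and 177, and a 7 day pair of 502 and 549. Both arms had their highest pair at 24 h and their lowest at 96 h, and the 7 day pairs of the arms overlapped. Its 96 h to 7 day change was 1.74 ± 0.14 with JNKi and 1.76 ± 0.14 with DMSO (log2 ± SE, limma adjusted p = 5.38e-07 and 6.72e-07). Ccna2 encodes cyclin A, which acts in S phase and G2. With JNKi, Ccna2 had a 24 h pair of 4934 and 6512 normalized reads, a 48 h pair of 3389 and 3194, a 72 h pair of 2539 and 2709.5, a 96 h pair of 1261 and 1377, and a 7 day pair of 3466 and 3411. With DMSO, Ccna2 had a 24 h pair of 6119 and 7672 normalized reads, a 48 h pair of 3516 and 3106, a 72 h pair of 2747 and 3121, a 96 h pair of 1095 and 1467, and a 7 day pair of 2882 and 3546. The lowest pair was that at 96 h in both arms, and at 7 days the JNKi pair lay within the span of the DMSO pair. Ccna2 at 7 days against 24 h was -0.72 ± 0.15 on the log2 scale with JNKi and -1.10 ± 0.15 with DMSO (adjusted p = 0.000672 and 1.26e-05).

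Cdc25c, a phosphatase that activates Cdk1, had the second largest DMSO return. With JNKi, Cdc25c had a 24 h pair of 498 and 650.2 normalized reads, a 48 h pair of 256 and 278, a 72 h pair of 202 and 257, a 96 h pair of 125 and 110.1, and a 7 day pair of 352 and 381. With DMSO, Cdc25c had a 24 h pair of 559 and 689 normalized reads, a 48 h pair of 285 and 284, a 72 h pair of 243 and 309.5, a 96 h pair of 91.7 and 98.4, and a 7 day pair of 299.6 and 335. The 96 h pairs were lowest without overlap with any other time, and the return was 1.63 ± 0.17 with JNKi and 1.73 ± 0.17 with DMSO. Foxm1 encodes the forkhead factor that drives many of the other members. With JNKi, Foxm1 had a 24 h pair of 3541 and 4323 normalized reads, a 48 h pair of 2805 and 2933, a 72 h pair of 2769 and 2678, a 96 h pair of 1518 and 1456, and a 7 day pair of 3025 and 3171. With DMSO, Foxm1 had a 24 h pair of 4034 and 5106 normalized reads, a 48 h pair of 3216 and 2975, a 72 h pair of 2909 and 3107, a 96 h pair of 1300.2 and 1530.3, and a 7 day pair of 2503 and 2922. Foxm1 had the smallest fall of all members from 24 to 48 h with DMSO, -0.55 ± 0.12 (adjusted p = 0.00229), and then -1.09 ± 0.12 from 72 to 96 h (adjusted p = 4.68e-06). Without DMSO at 24 h replicate 2 the Foxm1 change from 24 to 48 h was -0.38 (adjusted p = 0.0587). With JNKi the 2 steps were -0.45 ± 0.12 and -0.87 ± 0.12. Among the remaining members of this group, Cdk1, Ccnb1, Cdc25b and Cks2, the smallest DMSO return was that of Cks2 at 0.75.

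The 4 mitotic kinases all fell in both falling steps in both arms and all rose at 7 days. Aurka, Aurora A, which builds the spindle poles, came closest to its 24 h level with JNKi. With JNKi, Aurka had a 24 h pair of 2222 and 2887 normalized reads, a 48 h pair of 1599.5 and 1713, a 72 h pair of 1226 and 1468, a 96 h pair of 822 and 953, and a 7 day pair of 2321 and 2492. With DMSO, Aurka had a 24 h pair of 2821 and 3252 normalized reads, a 48 h pair of 1795 and 1543, a 72 h pair of 1301 and 1478, a 96 h pair of 589.8 and 813, and a 7 day pair of 1636 and 2066. The JNKi pair at 7 days lay inside the span of its own 24 h pair, while the DMSO pair lay below its 24 h pair. Aurka at 7 days against 24 h was -0.07 ± 0.16 with JNKi (adjusted p = 0.709) and -0.72 ± 0.16 with DMSO (adjusted p = 0.00112). Plk1, Polo-like kinase 1, acts from mitotic entry to cytokinesis. With JNKi, Plk1 had a 24 h pair of 2356 and 3000.4 normalized reads, a 48 h pair of 1581 and 1567, a 72 h pair of 1165 and 1401, a 96 h pair of 504 and 536, and a 7 day pair of 1586 and 1691. With DMSO, Plk1 had a 24 h pair of 2769 and 3394 normalized reads, a 48 h pair of 1639.5 and 1349, a 72 h pair of 1405 and 1625, a 96 h pair of 372 and 548, and a 7 day pair of 949 and 1421. At 7 days both JNKi values exceeded both DMSO values, but the DMSO replicates lay far apart and the difference of 0.50 ± 0.19 did not pass the test (adjusted p = 0.108). Nek2, a kinase that separates centrosomes, is given with the inhibitor comparison. Melk, the last of the kinases, rose from 96 h to 7 days by 1.56 ± 0.16 with JNKi and 1.32 ± 0.16 with DMSO.

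The chromosomal passenger complex, which corrects faulty attachments and directs cytokinesis, is formed by Aurkb, Incenp, Birc5 and Cdca8, and these 4 fell and rose with the others in both arms. Aurkb, its kinase Aurora B, had the deepest trough of the 45 genes. With JNKi, Aurkb had a 24 h pair of 2009 and 2791 normalized reads, a 48 h pair of 1193 and 1136, a 72 h pair of 886 and 973, a 96 h pair of 263 and 249, and a 7 day pair of 1173 and 1175. With DMSO, Aurkb had a 24 h pair of 2512 and 3172 normalized reads, a 48 h pair of 1374 and 1208, a 72 h pair of 1036 and 1101, a 96 h pair of 266 and 284, and a 7 day pair of 690.1 and 976. At 96 h Aurkb stood at 10.7% of its 24 h level with JNKi and at 9.67% with DMSO. From 72 to 96 h it changed by -1.86 ± 0.16 with JNKi and -1.96 ± 0.16 with DMSO, and at 7 days it remained -1.78 ± 0.16 from its 24 h level with DMSO, the most negative of all members. Incenp encodes the scaffold of the complex. With JNKi, Incenp had a 24 h pair of 4246 and 4644 normalized reads, a 48 h pair of 2929 and 3453, a 72 h pair of 2621 and 2835, a 96 h pair of 1262 and 1304, and a 7 day pair of 3691 and 3437. With DMSO, Incenp had a 24 h pair of 4930.4 and 5465 normalized reads, a 48 h pair of 3236 and 2961, a 72 h pair of 3154 and 3238, a 96 h pair of 1263 and 1404, and a 7 day pair of 2107 and 2449. The 96 h pairs of the arms overlapped, and at 7 days both JNKi libraries were above both DMSO libraries and above every 72 h library of either arm. Birc5 encodes survivin, the part of the complex that finds the centromere. With JNKi, Birc5 had a 24 h pair of 2280.4 and 2979.6 normalized reads, a 48 h pair of 1587 and 1634, a 72 h pair of 1117 and 1239.7, a 96 h pair of 557 and 603, and a 7 day pair of 1558 and 1563. With DMSO, Birc5 had a 24 h pair of 2799.7 and 3447 normalized reads, a 48 h pair of 1707 and 1391, a 72 h pair of 1128 and 1432, a 96 h pair of 531 and 567, and a 7 day pair of 1466 and 1741. Its 7 day pairs overlapped between arms, with a difference of -0.03 ± 0.14 (adjusted p = 0.907).

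Kinetochore and spindle checkpoint genes numbered 9. Of these, 9 fell from 24 to 48 h and 8 from 72 to 96 h in each arm, and 9 rose at 7 days in each arm. Cenpe, a kinesin that moves chromosomes to the spindle equator, passed the test at both falls and at the return in each arm. With JNKi, Cenpe had a 24 h pair of 4292 and 4435 normalized reads, a 48 h pair of 2708 and 2538, a 72 h pair of 2499 and 2644, a 96 h pair of 1519.9 and 1271, and a 7 day pair of 3241 and 3831. With DMSO, Cenpe had a 24 h pair of 4549.5 and 5033 normalized reads, a 48 h pair of 2799 and 2669, a 72 h pair of 2552 and 3376, a 96 h pair of 1124 and 1362, and a 7 day pair of 2811 and 3003. The 96 h pair was the lowest in each arm, and the 48 and 72 h pairs overlapped in each. Bub1b, BubR1 of the checkpoint, regained the smallest share of its fall with JNKi. With JNKi, Bub1b had a 24 h pair of 4572 and 5713 normalized reads, a 48 h pair of 2689 and 2583, a 72 h pair of 2159 and 2356, a 96 h pair of 1157 and 1171, and a 7 day pair of 2204 and 2422. With DMSO, Bub1b had a 24 h pair of 5408 and 6030.1 normalized reads, a 48 h pair of 3062 and 2814, a 72 h pair of 2442 and 2795, a 96 h pair of 1014 and 1162, and a 7 day pair of 1678 and 2114. In neither arm did a 7 day library reach a 48 h library. With DMSO Bub1b was still -1.60 ± 0.12 at 7 days against 24 h, and -0.47 ± 0.12 against 72 h (adjusted p = 0.00672). Ndc80, the microtubule-binding arm of the kinetochore, did not pass the test at the second fall. With JNKi, Ndc80 had a 24 h pair of 1171 and 1353 normalized reads, a 48 h pair of 735 and 767, a 72 h pair of 624 and 607, a 96 h pair of 658 and 666, and a 7 day pair of 965 and 1079. With DMSO, Ndc80 had a 24 h pair of 1390.0 and 1628 normalized reads, a 48 h pair of 791 and 734, a 72 h pair of 666 and 728, a 96 h pair of 562 and 666, and a 7 day pair of 1126 and 1054. In the JNKi arm both 96 h values were above both 72 h values, and in the DMSO arm the higher 96 h value and the lower 72 h value were nearly the same. The 72 to 96 h change was 0.11 ± 0.11 with JNKi (adjusted p = 0.504) and -0.19 ± 0.11 with DMSO (adjusted p = 0.2). Nuf2, its partner in the same complex, changed by -1.08 ± 0.13 with JNKi and -1.0 ± 0.13 with DMSO (adjusted p = 3.24e-05 and 2.69e-05).

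**Figure D3:**
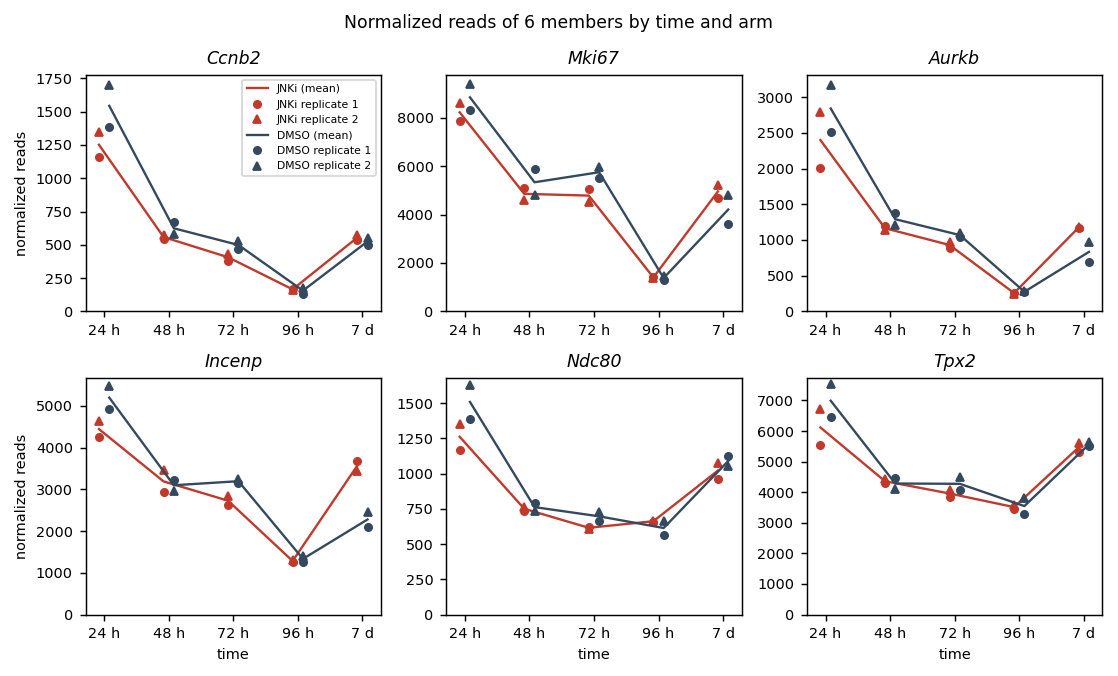
Normalized reads of 6 members by time, JNKi in red and DMSO in dark blue, each replicate a point and the line the mean of 2. Ccnb2, Mki67 and Aurkb show both falls and the return; Ndc80 and Tpx2 change little from 72 to 96 h; Incenp separates at 7 days, with 3691 and 3437 normalized reads in JNKi libraries and 2107 and 2449 in DMSO libraries.

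Spindle kinesins and assembly factors numbered 7, of which 6 fell from 72 to 96 h with JNKi and 7 with DMSO. Tpx2, which activates Aurora A on microtubules, kept the highest share of its 24 h level at 96 h, 57.4% with JNKi and 50.7% with DMSO. With JNKi, Tpx2 had a 24 h pair of 5529 and 6709 normalized reads, a 48 h pair of 4299 and 4423, a 72 h pair of 3831 and 4086, a 96 h pair of 3456 and 3569.8, and a 7 day pair of 5307 and 5623. With DMSO, Tpx2 had a 24 h pair of 6453 and 7532 normalized reads, a 48 h pair of 4475 and 4095, a 72 h pair of 4066 and 4483, a 96 h pair of 3291 and 3804, and a 7 day pair of 5506 and 5627. In both arms the 96 h pair was the lowest, and the 7 day pair lay above every value of 48 to 96 h. The change from 72 to 96 h was -0.17 ± 0.10 with JNKi (adjusted p = 0.221) and -0.27 ± 0.10 with DMSO (adjusted p = 0.0447). The DMSO call was just inside the threshold and was lost under several settings, without DMSO at 96 h replicate 1 for instance, at -0.17 (adjusted p = 0.324). Kif11 encodes the Eg5 motor that pushes spindle poles apart. With JNKi, Kif11 had a 24 h pair of 3237 and 3724 normalized reads, a 48 h pair of 1935 and 1857, a 72 h pair of 1672 and 1699, a 96 h pair of 1118 and 1080.1, and a 7 day pair of 2071 and 2162. With DMSO, Kif11 had a 24 h pair of 3404 and 4303 normalized reads, a 48 h pair of 1969.7 and 1845, a 72 h pair of 1741 and 2049, a 96 h pair of 831 and 1140.2, and a 7 day pair of 1964 and 2139. Its 7 day pairs of the arms overlapped, and its return was 0.94 ± 0.13 with JNKi and 1.07 ± 0.13 with DMSO. In the same group Kif2c, a kinesin that takes microtubules apart, had the largest 72 to 96 h fall, -1.18 with JNKi and -1.54 with DMSO.

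Central spindle and cytokinesis genes numbered 6, with 5 falling from 72 to 96 h and 6 rising at 7 days in each arm. Racgap1, part of centralspindlin, and Prc1, which bundles central spindle microtubules, had overlapping pairs in the arms at 7 days. With JNKi, Racgap1 had a 24 h pair of 6875 and 8672 normalized reads, a 48 h pair of 4797 and 4747, a 72 h pair of 3869 and 3948, a 96 h pair of 2297 and 2319, and a 7 day pair of 4469.7 and 4472. With DMSO, Racgap1 had a 24 h pair of 8065 and 9866 normalized reads, a 48 h pair of 5265 and 4799.8, a 72 h pair of 4384 and 4669.9, a 96 h pair of 2078 and 2320.3, and a 7 day pair of 4383 and 4750.2. The JNKi pair of Racgap1 at 7 days lay inside the span of the DMSO pair. With JNKi, Prc1 had a 24 h pair of 5117 and 6188 normalized reads, a 48 h pair of 4150.1 and 3796, a 72 h pair of 3355 and 3460.1, a 96 h pair of 2131 and 2279.8, and a 7 day pair of 4001 and 3973. With DMSO, Prc1 had a 24 h pair of 6094 and 6823 normalized reads, a 48 h pair of 4332 and 3748, a 72 h pair of 3544 and 4044, a 96 h pair of 1826 and 2226, and a 7 day pair of 3903 and 4301. Both genes had their lowest pair at 96 h and neither reached a 24 h value at 7 days. The JNKi minus DMSO difference at 7 days was -0.03 ± 0.11 for Racgap1 and -0.04 ± 0.11 for Prc1. Kif20a, the kinesin MKLP2 that carries the passenger complex to the midzone, had the largest fall of the group from 72 to 96 h, -1.37 ± 0.14 with JNKi and -1.86 ± 0.14 with DMSO. Ect2, which activates the contractile ring, had the smallest change, -0.28 ± 0.14 with JNKi and -0.37 ± 0.14 with DMSO.

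Anaphase and ubiquitin genes numbered 5, of which 4 fell from 72 to 96 h with JNKi and 5 with DMSO. Cdc20 is the activator of the anaphase-promoting complex and Ube2c its ubiquitin-conjugating enzyme. With JNKi, Cdc20 had a 24 h pair of 2294 and 2874 normalized reads, a 48 h pair of 1513 and 1512, a 72 h pair of 1054 and 1274, a 96 h pair of 666 and 632, and a 7 day pair of 1963 and 2069. With DMSO, Cdc20 had a 24 h pair of 2773 and 3269.5 normalized reads, a 48 h pair of 1589 and 1386, a 72 h pair of 1175 and 1423, a 96 h pair of 524 and 700.4, and a 7 day pair of 1380.2 and 1561. At 7 days both JNKi libraries lay above both DMSO libraries, with a difference of 0.46 ± 0.15 that missed the threshold (adjusted p = 0.0556). With JNKi, Ube2c had a 24 h pair of 2873 and 3914 normalized reads, a 48 h pair of 1819 and 1842, a 72 h pair of 1517 and 1725, a 96 h pair of 1103 and 1399, and a 7 day pair of 2326 and 2585. With DMSO, Ube2c had a 24 h pair of 3473 and 4315 normalized reads, a 48 h pair of 2112 and 1697, a 72 h pair of 1556 and 1713, a 96 h pair of 969 and 1309.6, and a 7 day pair of 2134 and 2219.6. Ube2c had its lowest pair at 96 h in both arms, and its change from 72 to 96 h was -0.38 ± 0.17 with JNKi (adjusted p = 0.0941) and -0.54 ± 0.17 with DMSO (adjusted p = 0.0177). The DMSO call for Ube2c was lost without DMSO at 72 h replicate 2 (-0.47, adjusted p = 0.0966) and without DMSO at 96 h replicate 1 (-0.32, adjusted p = 0.219). Espl1, separase, which cuts cohesin, was the member that regained the smallest share of its fall with DMSO, with a return of 0.61 ± 0.14 that was 0.39 without DMSO at 7 days replicate 2. With JNKi, Espl1 had a 24 h pair of 2022 and 2318 normalized reads, a 48 h pair of 1574 and 1456, a 72 h pair of 1348 and 1467, a 96 h pair of 632 and 613, and a 7 day pair of 1184 and 1321. With DMSO, Espl1 had a 24 h pair of 2238 and 2588 normalized reads, a 48 h pair of 1680.3 and 1571, a 72 h pair of 1628 and 1953, a 96 h pair of 558 and 693, and a 7 day pair of 813 and 1102. The 48 and 72 h pairs overlapped in each arm, and the DMSO pair at 7 days was below every DMSO library of 24 to 72 h. Espl1 at 7 days was -0.17 ± 0.14 against 72 h with JNKi (adjusted p = 0.372) and -0.91 ± 0.14 with DMSO (adjusted p = 0.000138). Pttg1, securin, its inhibitor, was 0.77 ± 0.12 with JNKi and 0.33 ± 0.12 with DMSO over the same interval (adjusted p = 0.000237 and 0.0413).

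The mitotic chromosome genes were Top2a, topoisomerase II alpha, which untangles sister chromatids, and Mki67, which coats mitotic chromosomes and is the common histological mark of cycling cells. With JNKi, Mki67 had a 24 h pair of 7863 and 8597 normalized reads, a 48 h pair of 5094 and 4625, a 72 h pair of 5071 and 4502, a 96 h pair of 1432 and 1374, and a 7 day pair of 4699.8 and 5214. With DMSO, Mki67 had a 24 h pair of 8312 and 9388 normalized reads, a 48 h pair of 5866 and 4809.8, a 72 h pair of 5534 and 5971, a 96 h pair of 1280.1 and 1476, and a 7 day pair of 3617 and 4802. The 48 and 72 h pairs of Mki67 overlapped in each arm. From 72 to 96 h it then had the largest fall of all members with DMSO, -2.06 ± 0.13 (adjusted p = 5.8e-08), beside -1.77 ± 0.13 with JNKi. With JNKi, Top2a had a 24 h pair of 15556 and 18079 normalized reads, a 48 h pair of 9732 and 9609.6, a 72 h pair of 8984 and 9643, a 96 h pair of 4377 and 4239, and a 7 day pair of 10018 and 10343. With DMSO, Top2a had a 24 h pair of 17546 and 20674 normalized reads, a 48 h pair of 11259.5 and 10188, a 72 h pair of 9299 and 10775, a 96 h pair of 3999 and 4486, and a 7 day pair of 7818 and 8768. Top2a changed by -1.11 ± 0.10 with JNKi and -1.24 ± 0.10 with DMSO over that step, and its 7 day pair with JNKi lay above its 48 h pair, while that with DMSO lay below its 48 h pair.

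The return at 7 days was partial and uneven. Each arm was set against its own 24 h level, and the median log2 change from 24 to 96 h was -1.88 with JNKi and -2.13 with DMSO. The difference of JNKi from DMSO had a median of -0.21 at 24 h and 0.22 at 7 days. On the log2 scale, the share of the 24 to 96 h fall that was regained had a median of 70.2% with JNKi and 54.2% with DMSO. With JNKi it ranged from 46.5% (Bub1b) to 94.7% (Aurka), and 43 of 45 members regained over 50%. With DMSO it ranged from 31.3% (Espl1) to 69.8% (Nuf2), and 30 members regained over 50%. The Espl1 value rests on 1 library: without DMSO at 7 days replicate 2 its return was 0.39 on the log2 scale and did not pass (adjusted p = 0.0773), against 0.61 ± 0.14 with it. Against 72 h, a comparison added after seeing the data, 27 members were higher at 7 days with JNKi and 0 lower, where 17.3% of all genes were higher and 14.1% lower. With DMSO 7 members were higher and 6 lower, where 17.5% of all genes were higher and 16.2% lower. The 7 were Ccnb1, Ndc80, Nuf2, Tpx2, Nusap1, Ect2 and Pttg1, at 0.33 to 0.64; the 6 were Incenp, Bub1b, Kif20a, Kif23, Espl1 and Mki67, at -0.91 to -0.37. These counts depend on single libraries: without JNKi at 72 h replicate 1 the JNKi count was 11, and without JNKi at 7 days replicate 1 or replicate 2 it was 17 or 15. With DMSO 13 passed in either direction, against 8 without DMSO at 72 h replicate 1 and 7 without DMSO at 7 days replicate 1.

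Through 96 h no member separated the arms by the test, and at 7 days 6 were higher with JNKi. JNKi against DMSO gave 0 members past limma's test at 24, 48, 72 or 96 h, with medians of -0.21, -0.03, -0.16 and 0.10. In the same order of times, the difference was below 0 in 45, 30, 42 and 11 of the 45 members. Both JNKi libraries were below both DMSO libraries in 8, 11, 20 and 3 members, and above both in 0, 0, 0 and 6. The share of all genes with such an order is not given for these times, so these counts are not read as a result about the members. At 24 h the library medians over the members, relative to the DMSO 24 h mean, were -0.37 and -0.06 with JNKi and -0.14 and 0.14 with DMSO, which interleave. The members share these libraries, so a count of signs over members is not a count of independent results. Of all genes tested, 0% passed at 24 and at 48 h, 0.072% at 72 h and 0.0072% at 96 h. At an unadjusted p under 0.05 the counts were 4 lower at 24 h, 0 at 48 h, 5 lower at 72 h and 2 higher at 96 h. Of the 13896 genes tested, 610, 521, 1125 and 677 were under it in either direction at these times. On recovered reads edgeR and DESeq2 also called 0 at each of these times. At 7 days 6 members were higher with JNKi and 0 lower, where 4.84% of all genes tested were higher and 5.33% lower. The count was 3 with no intensity trend and 13 when the compared groups were fitted alone, beside 1169 and 1661 of all genes in either direction. The median member was 0.22 higher, beside 0.02 over all genes tested, and 40 of 45 were above 0. In 33 members both JNKi libraries were above both DMSO libraries, against 32% of all genes tested. The 6 members were Incenp, Nek2, Kif20a, Aurkb, Cdc25b and Cenpf.

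Incenp had the largest difference, 0.65 ± 0.10 (SE; adjusted p = 0.00081), and its library values stand with the passenger complex. With JNKi, Nek2 had a 24 h pair of 1334 and 1665 normalized reads, a 48 h pair of 809 and 810.0, a 72 h pair of 696 and 725, a 96 h pair of 401 and 426, and a 7 day pair of 1115 and 1275. With DMSO, Nek2 had a 24 h pair of 1546 and 1981 normalized reads, a 48 h pair of 816 and 732, a 72 h pair of 712 and 768, a 96 h pair of 325 and 421, and a 7 day pair of 823 and 844. For Nek2 the 7 day pairs did not overlap, and the difference was 0.52 ± 0.14 (adjusted p = 0.0261). Kif20a stood at 2259.8 and 2208 normalized reads in JNKi libraries and at 1367 and 1775 in DMSO libraries at 7 days, a difference of 0.52 ± 0.14 (adjusted p = 0.0272). Cdc25b, another Cdk1-activating phosphatase, stood at 1547 and 1619 with JNKi and at 1017 and 1302 with DMSO, a difference of 0.46 ± 0.12 (adjusted p = 0.024). The pairs were separate in all of these, and for Kif20a and Cdc25b the JNKi replicates lay closer together than the DMSO replicates. Cenpf, a large kinetochore protein, stood at 2257 and 2294 with JNKi and at 1522 and 1799.9 with DMSO, a difference of 0.46 ± 0.12 (adjusted p = 0.0217). Aurkb was at the edge of the threshold, with a difference of 0.52 ± 0.16 (adjusted p = 0.0475). Its call was lost with no filter (adjusted p = 0.0561), no trend (0.0903) and edgeR (0.0654), and without any 1 library of 48 h, 72 h, 96 h or JNKi at 7 days. It was also lost without DMSO at 7 days replicate 1, where the Aurkb difference was 0.27. Within the passenger complex Aurkb and Incenp were called and Birc5 and Cdca8, at -0.03 and 0.08, were not; the difference between these genes was not tested.

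This count rested on single libraries: without DMSO at 7 days replicate 1, or without either JNKi library at 7 days, Incenp was the 1 member called, and without DMSO at 7 days replicate 2 there were 10. DMSO replicate 1 at 7 days had a library median over the members of -1.09 relative to the DMSO 24 h mean, beside -0.88 for replicate 2. The near-silent receptor genes summed higher with JNKi than with DMSO at 7 days, as given above, and their part in this difference was not tested. The JNKi effect had a member median of -0.21 at 24 h and 0.22 at 7 days, and both enter the test that follows. The change of the JNKi effect between 24 h and 7 days, a test of the interaction, was above 0 in all 45 members, which share the same libraries. Its median was 0.41, beside 0.02 over all genes tested. It passed in Incenp, at 0.87 ± 0.14 (adjusted p = 0.00477), and Kif20a, at 0.79 ± 0.20 (adjusted p = 0.04999), where 0.799% of all genes tested were higher. The count was 8 without DMSO at 7 days replicate 2 and 5 without JNKi at 24 h replicate 2. Incenp passed with any 1 library left out. Kif20a was lost with a pseudocount of 0.5, no filter, TMM, no trend, the compared groups alone or edgeR, each of which called Incenp alone, while DESeq2 called 6 members. Kif20a was also lost without either DMSO library of 24 or 48 h, without either JNKi library of 48 h, 96 h or 7 days, without JNKi at 24 h replicate 1 and without DMSO at 7 days replicate 1. Between 96 h and 7 days the change of the JNKi effect passed in 0 members, where 0.0792% of all genes tested passed. At an unadjusted p under 0.05 it had 3 members, beside 1548 of the 13896 genes tested. It passed in 0 members by edgeR and in 1 by DESeq2. It passed in 1 member without DMSO at 7 days replicate 2 or without either JNKi library of 48 h.

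**Figure D4:**
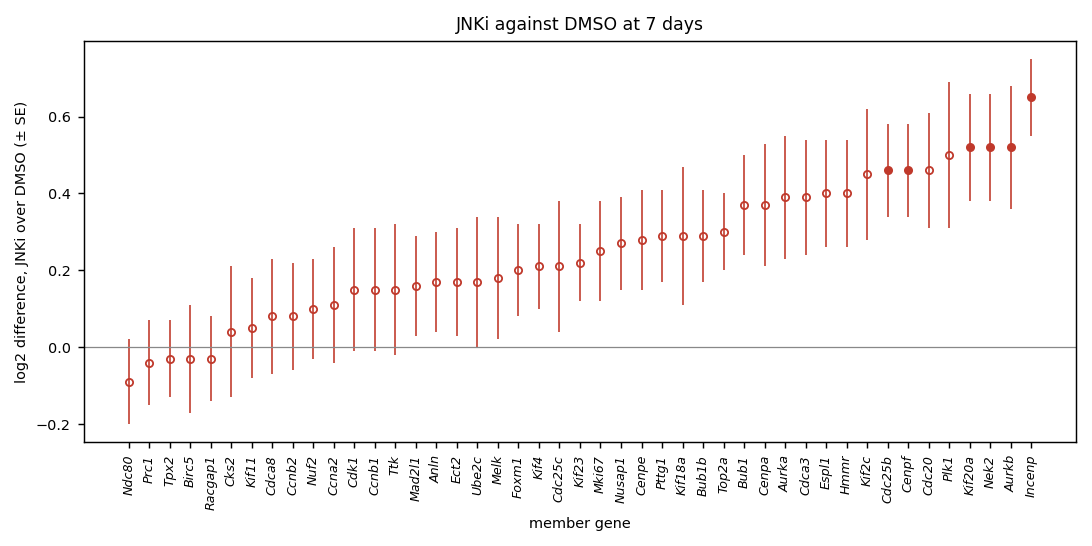
Log2 difference between JNKi and DMSO at 7 days for each of the 45 members, ordered by size, with the model's standard error (n = 2 libraries per group); filled points passed limma's test. Ndc80 is lowest at -0.09 and Incenp highest at 0.65, and 40 of 45 points lie above 0.

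The rest of the cell cycle program was read from 5 further lists. Other mitotic genes, 74 tested of 76, moved the same way in most cases. From 24 to 48 h 54 fell with JNKi and 64 with DMSO, where 11.2% and 13.7% of all genes tested fell. From 72 to 96 h 55 and 56 fell, where 17.3% and 20.8% of all genes did. From 96 h to 7 days 63 rose with JNKi and 56 with DMSO, where 23.2% and 21% of all genes rose. Hjurp, a centromere histone chaperone, was among those that did not pass, at 0.25 ± 0.15 from 24 to 48 h and -0.27 ± 0.15 from 96 h to 7 days with DMSO. Spc24, a partner of Ndc80, and Cenpm, a centromere protein, had the largest DMSO falls of that list from 24 h to 7 days, -1.67 ± 0.19 and -1.59 ± 0.20. At 7 days 12 genes of that list were higher with JNKi than with DMSO and 0 lower, among them Psrc1, a spindle regulator, at 1.45 ± 0.21. Of all genes tested 4.84% were higher and 5.33% lower in that comparison. Of 40 DNA replication genes tested, 19 fell with JNKi from 24 to 48 h, at a median of -0.34, and 33 with DMSO, at a median of -0.52. They fell in 36 cases with JNKi and 37 with DMSO from 72 to 96 h and rose in 31 and 25 by 7 days. The shares of all genes at these steps are those given with the other mitotic genes. With DMSO the replication genes had a median of -0.99 at 7 days against 24 h. There 38 were lower, beside 28% of all genes, among them Tk1, thymidine kinase, at -1.84 ± 0.24 and Gins1, a helicase subunit, at -1.64 ± 0.18.

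The regulators of this program did not all move alike. Of 19 E2F, pocket protein and MuvB genes, 12 were lower and 1 higher at 7 days against 24 h with DMSO, at a median of -0.48. Of all genes tested 28% were lower and 32% higher there. Rb1, the retinoblastoma pocket protein, was the gene that was higher. It stood at 962 and 891 normalized reads at 7 days with JNKi, against 576 and 502 at 24 h, and at 1113 and 814 at 7 days with DMSO, against 499 and 546 at 24 h. Rb1 changed from 72 to 96 h by 1.04 ± 0.13 with DMSO (adjusted p = 1.77e-05), and from 24 h to 7 days by 0.87 ± 0.13. Rbl1, the pocket protein p107, was -1.24 ± 0.11 and E2f8, a repressor E2F, -1.02 ± 0.16 at 7 days against 24 h with DMSO. Mybl2, which encodes B-MYB, was -0.96 ± 0.18 (adjusted p = 0.000263) and E2f1 -0.31 ± 0.15 (adjusted p = 0.0945). E2f1 passed without DMSO at 24 h replicate 1 (-0.56, adjusted p = 0.00683) and without DMSO at 7 days replicate 2 (-0.47, adjusted p = 0.0391). Of 13 subunits of the anaphase-promoting complex with its activator gene Fzr1, 9 were lower with DMSO at 7 days against 24 h, beside 28% of all genes. The largest falls were those of Anapc2 at -0.85 ± 0.08 and Anapc11 at -0.72 ± 0.14.

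CDK inhibitors, G1 cyclins and Myc, 15 tested of 16, had no shared direction, with 3 higher and 6 lower at 7 days against 24 h with DMSO. Of all genes tested 32% were higher and 28% lower over that interval. Ccnd2, cyclin D2, was higher at 96 h than at 24 h in both arms, where the mitotic genes were lower. It stood at 1174 and 1197 normalized reads with JNKi at 24 h, at 4237 and 4629 at 96 h and at 3097 and 3382 at 7 days. In DMSO libraries it stood at 1085 and 1067 at 24 h, at 5119 and 4802 at 96 h and at 4957 and 4418 at 7 days. From 96 h to 7 days its JNKi pair thus moved down, while its DMSO pairs overlapped. Ccnd2 rose by 2.12 ± 0.12 at 7 days against 24 h with DMSO (adjusted p = 6.82e-10) and was -0.53 ± 0.12 with JNKi against DMSO at 7 days (adjusted p = 0.00856). Myc had the most negative change of this list from 96 h to 7 days, -0.91 with JNKi and -0.78 with DMSO. At 7 days against 24 h with DMSO, Myc was 0.63 ± 0.15 and Ccnd1, cyclin D1, -0.67 ± 0.13. Over the same interval Ccne2, cyclin E2, was -0.68 ± 0.19, a call lost without DMSO at 24 h replicate 2 (-0.40) or DMSO at 7 days replicate 1, and Cdkn2c, the inhibitor p18, was -1.19 ± 0.22. Cdkn1a, the inhibitor p21, stood at 7683 and 7907 in JNKi libraries at 7 days and at 4482 and 6371 in DMSO libraries, a difference of 0.54 ± 0.13 (adjusted p = 0.0136). Ccnd1 differed by 0.64 ± 0.13 in the same direction (adjusted p = 0.00658). Cdkn1b, the inhibitor p27, was -0.13 ± 0.12 from 24 h to 7 days with DMSO (adjusted p = 0.36). Cdkn2b, p15, a TGF-β target in many epithelial cells, was 0.22 ± 0.09 (adjusted p = 0.0405), a call lost with edgeR (adjusted p = 0.0626) and without either DMSO library of 24 h or of 7 days.

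**Figure D5:**
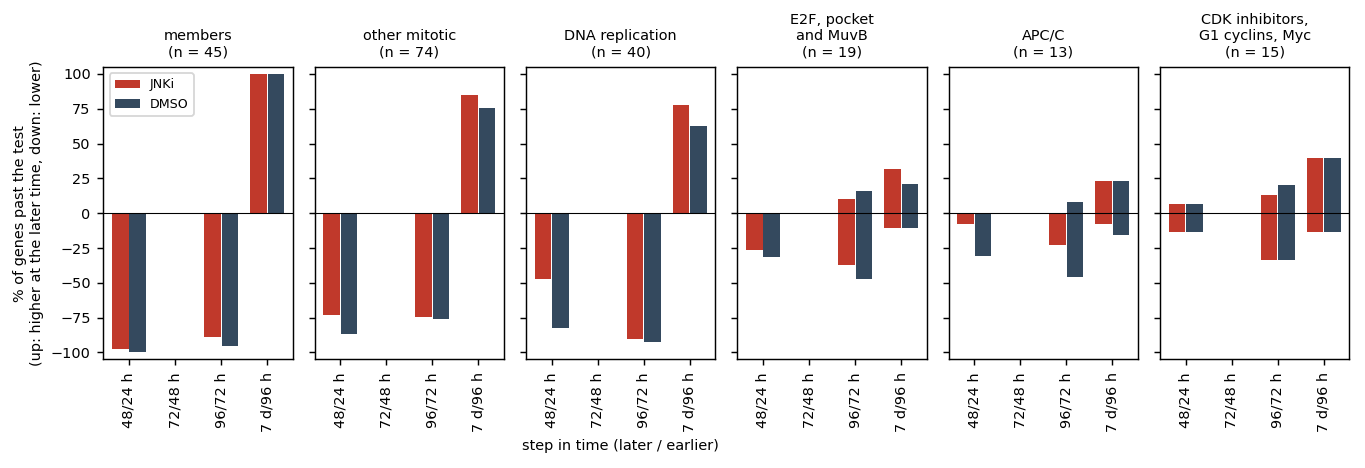
Percent of genes past limma's test at each step for the 45 members and the 5 further cell cycle lists, bars up for higher and down for lower at the later time, JNKi left of DMSO. In the first step all members fall with DMSO, while 19 of 40 DNA replication genes pass with JNKi and 33 with DMSO; no member passes from 48 to 72 h, and the regulator lists move in both directions.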

How the data were processed

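RNA from NMuMG cells was sequenced in 35 samples, of which the 20 of the inhibitor experiment were used. The submitters' processing notes name TopHat, HTSeq, DESeq and the mm9 build, with no version. Use of strand in counting is not given in the sources used here; reads of genes that overlap, lie antisense or are near-copies may therefore be split wrongly. The deposited values are a signal, read counts that the authors scaled by library. Each value was divided by the library's smallest step to recover reads, and 100% of values lay within 0.1 of a whole number. The other deposited table, of the 15 time course samples, was not used, because its values are split at the decimal point.

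The members, role groups, other lists, naming rule and tests were chosen with earlier results of these data known. For each role group the 2 members with the highest means, and the extremes of 3 comparisons, are given in every library; from other lists, up to 2 genes with the largest change each way, plus 7 regulators named by the rule. Other genes named, Psrc1 among them, were chosen after their values were seen. log2(value + 1) was fitted with limma 3.58.1 (R 4.3.3), intensity trend, one mean per group, all 20 libraries, for the 13896 genes that averaged 10 or more in 1 group or more; adjustment was Benjamini-Hochberg over these genes at 0.05, two-sided. Fold changes on this scale understate low genes; SE is the model's. Alternatives tried were pseudocounts of 0.5 and 8, dropping the filter or raising it to 50, TMM, no trend, the compared groups alone, replicate blocks, edgeR 4.0.16 and DESeq2 1.42.0 on recovered reads, and each library left out. The code was tested on simulated data. Comparisons of 7 days with 72 h and of 96 h with 24 h were added after seeing the data. Replicates of a group differed beyond sampling noise (chi-square per degree of freedom 8.4 to 26.6), so none is a repeated deposit. Promoters came from RefSeq (GRCm38.p6); no coordinate of the files' build was used.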

Additional observations from a re-analysis of the deposited data

Results flagged for a closer look

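The difference between JNKi and DMSO changed between 24 h and 7 days in 2 members by a test of that change itself. For Incenp it moved by 0.87 ± 0.14 on the log2 scale (limma adjusted p = 0.00477), and for Kif20a by 0.79 ± 0.20 (limma adjusted p = 0.04999). Kif20a did not pass with a pseudocount of 0.5, no filter, TMM, no trend, the compared groups alone or edgeR, which left Incenp as the 1 member. For Incenp both JNKi libraries were below both DMSO libraries at 24 h and above both at 7 days, and for Kif20a likewise. Groups of 2 libraries are too small for a test of single outlying samples.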

How the results depend on the processing

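The falls and the return kept their direction and stayed within 1.5 times their counts under all alternatives run, except that JNKi at 48 h against 24 h gave 0 members with only the groups compared, and JNKi at 7 days against 24 h gave 20 to 40 with 1 library left out (20 without JNKi at 24 h replicate 2). The counts of the inhibitor comparison at 7 days moved most. Of JNKi against DMSO, 3 members passed with no trend and 13 with only the groups compared, and 1 to 10 with 1 library left out. The change of the JNKi effect from 24 h to 7 days passed in 1 member with a pseudocount of 0.5, no filter, TMM, no trend, only the groups compared or edgeR, in 6 with DESeq2, and in 1 to 8 with 1 library left out. From 96 h to 7 days it passed in 1 with a pseudocount of 8 or DESeq2, and in 0 to 1 with 1 library left out. The added comparisons with 72 h gave 7 to 18 members with DMSO and 11 to 29 with JNKi with 1 library left out. Prc1 at 7 days was -0.11 to 0.03 with JNKi against DMSO with 1 library left out, and 0.03 without DMSO at 7 days replicate 2. The cause was not tested.

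Replicate numbers were not taken as a pairing: replicate differences correlated between arms at 0.53 to 0.73 through 96 h but at 0.07 at 7 days. With a replicate block over all times, JNKi against DMSO at 7 days gave 14 members and 1701 of all genes tested, in either direction. With a replicate block within each time it gave 22 members and 3522 of all genes. The main fit gave 673 of all genes higher and 741 lower, so calls rose over all genes as well. The block gave 7 and 29 members for the change of the JNKi effect from 24 h, beside 457 and 1741 of all genes. For that from 96 h it gave 1 and 3 members, beside 23 and 719 of all genes. It changed no other count by over 1.5 times.

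Limits are the 2 libraries per group, the lowest depth in JNKi at 7 days replicate 1, and the lack of a 0 h library in the inhibitor experiment. Relative values after library scaling cannot show a change in total RNA per cell. Transcript levels do not count dividing cells.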
